A study of Mus musculus with 9 samples.

Results

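Interferon gamma (Ifng) and 4 secreted chemokines (Xcl1, Ccl5, Ccl4 and Cxcl10) are products that invariant natural killer T (iNKT) cells of the type 1 kind, called NKT1, can release. The 5 genes were taken by symbol from a table of 21883 genes, in which each symbol occurred once, and all 5 were found. RNA came from thymic iNKT cells of C57BL/6 mice sorted for low CD24 and high CD44, with low NK1.1 for stage 2 and high NK1.1 for stage 3. There were 3 libraries in each of 3 groups: Med23-deficient cells of stage 2, WT cells of the same stage, and WT cells of stage 3. The deficient samples are numbered in a later block than the WT samples. If the blocks were handled or sequenced apart, that could not be told apart from genotype. The deficient cells came from Med23 fl/fl mice carrying Cd4-Cre, a transgene active from the CD4+CD8+ thymocyte onward, so that Med23, a subunit of the Mediator complex, was lost in all alpha beta T cells and not in iNKT cells alone. The WT mice were 6 weeks old, the labels give no age for the deficient mice, the sources used here do not say whether mice were pooled, and the cells had not been stimulated with antigen before the RNA was taken.

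iNKT cells carry a nearly fixed T cell receptor that recognises lipids on CD1d, and they release cytokines within hours of stimulation. In the thymus, stage 2 cells that mature to stage 3 gain NK cell receptors and become NKT1 cells, whose hallmark cytokine is interferon gamma. Interferon gamma acts on macrophages and many other cells through the receptor chains Ifngr1 and Ifngr2. The chemokine Xcl1 draws cross-presenting dendritic cells that bear Xcr1, Ccl5 and Ccl4 draw T cells and monocytes, and Cxcl10 draws cells that bear Cxcr3. Resting NKT1 and NK cells are known to keep some of these messages in store before stimulation, so message and secreted protein need not run in parallel, and no protein was measured here.

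Values are FPKM, fragments scaled for transcript length and library size. Reads hitting more than 2 loci had been left out, so a gene with close copies elsewhere can be listed too low. Gapdh, for one, had means of only 9.47 FPKM in WT stage 2, 7.24 in deficient and 7.36 in WT stage 3 cells, and the reason was not tested. Levels and ranks of different genes are therefore only a rough guide. Tests used limma on log2(FPKM + 1), for the genes above 0 in at least 1 of the 6 libraries of a comparison. A gene was counted as changed at a fold of at least 2 on that scale with an unadjusted p of at most 0.05, and, more strictly, where p stayed within 0.05 after the Benjamini-Hochberg adjustment over the whole table. Differences of genes with few fragments are understated on this scale. With 3 libraries in each group, exact permutation of the labels could not give a p under 0.1, so single genes were tested with limma. The labels number the replicates without naming separate animals, so p-values measure only the spread between these libraries. In bulk samples, fewer cells of a type and less RNA per cell cannot be told apart.

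The libraries listed 15584 to 17333 genes above 0, and their read depth is unknown. The most abundant gene model held 62.2% to 71.9% of the summed FPKM of a library. Of 12 housekeeping genes listed as a check of scaling, 10 were lower in Med23-deficient than in WT stage 2 cells. Their median log2 difference was -0.23, beside -0.01 for all genes tested, and 0 passed by fold and p or by adjusted p. Med23, the deleted gene, stood at 5.51, 5.15 and 6.74 FPKM in WT stage 2, at 4.8, 3.6 and 3.92 in Med23-deficient stage 2 and at 7.14, 4.44 and 6.12 in WT stage 3. Every deficient library was below every WT stage 2 library, but the log2 difference of -0.41 (standard error 0.18) did not pass (limma adjusted p = 0.552), and which exons were deleted was not used here. All 12 markers of iNKT cells were above 0 in every library. The 7 NK receptor markers in the table summed to between 43.48 and 73.99 FPKM in WT stage 2, to between 8.52 and 10.16 in Med23-deficient stage 2 and to between 444.01 and 653.54 in WT stage 3. This list contains Klrb1c, the gene of the NK1.1 antigen used for the sort, so its stage difference is no finding. Of 6 gamma delta T cell markers, with sums of 259.0 to 330.94 FPKM in WT and 8.7 to 9.11 in deficient cells, the gamma constant genes carried the sum, and the delta constant gene Trdc was at or below 0.38 throughout. The 10 markers of CD4+CD8+ thymocytes summed to between 12.55 and 17.0 FPKM.

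Ifng and Xcl1 were both higher in WT stage 3 cells, as described next, and the 250 bases before each gene's start are shown so that the letters searched can be seen. The sequences are from RefSeq (GRCm38.p6), read 5′ to 3′ on the gene's strand. The starts are those of RefSeq, which places the start of Xcl1 a few bases inside the span given for that gene below and the start of Ifng next to the one given. Capitals mark matches to motifs searched on both strands in windows running from 250 bases before to 50 bases after the start.

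Ifng promoter, chr10:118440796-118441045, plus strand: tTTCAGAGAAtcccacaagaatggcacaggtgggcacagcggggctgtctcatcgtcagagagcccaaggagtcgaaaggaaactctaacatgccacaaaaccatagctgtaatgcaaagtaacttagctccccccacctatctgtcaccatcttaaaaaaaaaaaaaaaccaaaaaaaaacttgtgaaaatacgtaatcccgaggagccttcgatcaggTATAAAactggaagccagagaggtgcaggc

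Xcl1 promoter, chr1:164935523-164935772, minus strand: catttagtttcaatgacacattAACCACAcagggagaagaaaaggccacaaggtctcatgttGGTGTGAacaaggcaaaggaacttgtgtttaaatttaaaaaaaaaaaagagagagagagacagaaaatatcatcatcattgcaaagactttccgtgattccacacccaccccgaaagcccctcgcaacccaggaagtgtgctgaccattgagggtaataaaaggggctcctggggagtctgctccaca

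The promoter window of Ifng held the STAT letters TTCNNNGAA at -249 to -241, counted from the start, and a TATA box (TATAAA) at -30 to -25. That of Xcl1 held the reverse complement of the RUNX letters TGTGGTT at -228 to -222 and the T-box letters GGTGTGA at -188 to -182. Among 32851 promoter windows, the STAT letters occurred in 8.3%, the TATA letters in 13.62%, the RUNX letters in 5.27% and the T-box letters in 3.98%. Both windows lacked the letters searched for AP-1 (TGANTCA, in 7.81% of windows), the cyclic AMP element (TGACGTCA, 1.79%), ETS (CCGGAA, 14.9%), NF-kB (1.63%) and the interferon-stimulated element (3.44%). The Cxcl10 window, which was searched as well, held the interferon-stimulated letters at -213 to -204 and the AP-1 letters at -74 to -68. Entries for Ccl5 and Ccl4 were not used here. A match describes these letters and says nothing of whether a factor was bound.

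In Med23-deficient stage 2 cells, 0 of the 4 genes that could be tested passed either threshold against WT stage 2. Over all genes tested 0.798% were higher and 1.32% lower by fold and p, and 0.213% passed by adjusted p, so this count is near the background. Ifng, Xcl1 and Ccl5, the 3 members with appreciable RNA, were each lower than in WT stage 3 by at least 4-fold on the tested scale. Ccl4 was listed at 0 in every stage 2 library of either genotype, and Cxcl10 stayed under 1 FPKM in all 6. For these 2 genes the deficient libraries overlapped those of WT stage 3.

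**Figure D1:**
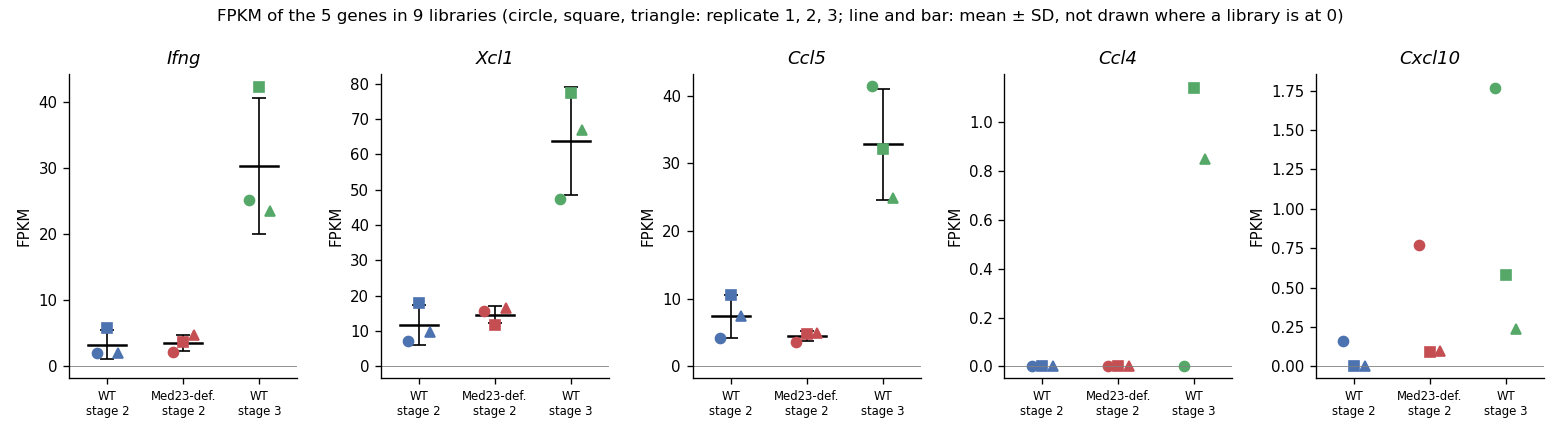
FPKM (vertical axes, drawn from just below 0, a different range for each gene) of the 5 genes in the 9 libraries, by group; symbols are libraries, and line and bar are the mean and SD where no library is at 0. For Ifng, Xcl1 and Ccl5 the 3 WT stage 3 libraries lie above all 6 stage 2 libraries of both genotypes, and for each of these genes WT stage 2 replicate 2 is the highest WT stage 2 library.

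Ifng (ENSMUSG00000055170, chromosome 10, 118441047 to 118445892, plus strand, mm10) encodes interferon gamma. It stood at 2.26, 3.77 and 4.74 FPKM in the Med23-deficient stage 2 libraries, at 1.97, 5.89 and 2.07 in WT stage 2 and at 25.29, 42.3 and 23.57 in WT stage 3. The deficient libraries lay inside the WT stage 2 range, while every WT stage 3 library was above both. Means were 3.59 ± 1.25 FPKM (SD, n = 3), 3.31 ± 2.23 (SD, n = 3) and 30.4 ± 10.4 (SD, n = 3) in that order. Against WT stage 2 the deficient cells differed by 0.17 on the log2 scale (95% interval -0.85 to 1.19, limma adjusted p = 0.902), an interval of 0.556 to 2.27 as a fold. The sign of this small difference changed when single libraries were left out. Against WT stage 3 they were lower by 2.76 on the log2 scale (standard error 0.3, limma adjusted p = 0.0178). Within WT cells, stage 3 was higher than stage 2 by 2.93 on the log2 scale (standard error 0.4, limma adjusted p = 0.0343), and mean FPKM differed by 9.18-fold.

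Xcl1 (ENSMUSG00000026573, chromosome 1, 164931644 to 164935527, minus strand) encodes lymphotactin, a chemokine of the C class. Its levels were 15.76, 11.87 and 16.46 FPKM in Med23-deficient stage 2 cells, 7.23, 17.96 and 9.87 in WT stage 2 and 47.27, 77.43 and 67.03 in WT stage 3. Of the 5 genes it was the most abundant in each group. In WT stage 3, with a mean of 63.9 ± 15.3 FPKM (SD, n = 3), it ranked 473 from the top of the 21883 genes. The deficient mean of 14.7 ± 2.47 (SD, n = 3) and the WT stage 2 mean of 11.7 ± 5.59 (SD, n = 3) came from overlapping libraries. Their difference of 0.38 on the log2 scale (95% interval -0.4 to 1.17) did not pass (limma adjusted p = 0.731). Without WT stage 2 replicate 2 it was 0.72, still short of the thresholds (limma adjusted p = 0.406, and 0.406 to 0.903 over the libraries left out). The deficient cells were lower than WT stage 3 by 2.03 (standard error 0.21, limma adjusted p = 0.0161), and WT stage 3 was higher than WT stage 2 by 2.42 (standard error 0.34, limma adjusted p = 0.0381).

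Ccl5 (ENSMUSG00000035042, chromosome 11, 83525778 to 83530518, minus strand) encodes RANTES, a CC chemokine of NK cells and effector T cells. It was listed at 3.58, 4.85 and 4.95 FPKM in Med23-deficient stage 2 cells, at 4.2, 10.54 and 7.44 in WT stage 2 and at 41.38, 32.08 and 24.96 in WT stage 3. Alone of the 3 abundant genes it had a lower mean in the deficient cells (4.46 ± 0.764 FPKM, SD, n = 3) than in WT stage 2 (7.39 ± 3.17, SD, n = 3), but WT stage 2 replicate 1 lay within the deficient range. The log2 difference of -0.56 (95% interval -1.33 to 0.22) did not pass (limma adjusted p = 0.663), and it was between -0.86 and -0.29 when 1 library was left out. Whether Ccl5 differs in its response from Ifng or Xcl1 was not tested. Against WT stage 3, at 32.8 ± 8.23 FPKM (SD, n = 3), the deficient cells were lower by 2.61 on the log2 scale (standard error 0.21, limma adjusted p = 0.00844). WT stage 3 was above WT stage 2 by 2.06 (standard error 0.33, limma adjusted p = 0.0481), close to the threshold.

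Ccl4 (ENSMUSG00000018930, chromosome 11, 83662584 to 83664683, plus strand) encodes MIP-1 beta and lies 132.1 kb from Ccl5. It was listed at 0 in each stage 2 library of either genotype. WT stage 3 had 0, 1.14 and 0.85 FPKM. With WT stage 3 replicate 1 also at 0, the groups overlapped, and neither the difference of 0.66 between the WT stages (limma adjusted p = 0.402) nor the one of -0.66 between deficient and WT stage 3 cells (limma adjusted p = 0.517) passed. The 2 stage 2 groups could not be compared for Ccl4. A listed 0 can also be a failed estimate, so it gives no upper limit.

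Cxcl10 (ENSMUSG00000034855, chromosome 5, 92346638 to 92348889, minus strand) encodes IP-10, a CXC chemokine that interferons induce in many cell types. It was at 0.77, 0.09 and 0.1 FPKM in Med23-deficient stage 2 cells, at 0.16, 0 and 0 in WT stage 2 and at 1.77, 0.58 and 0.24 in WT stage 3. Each WT stage 3 library was above each WT stage 2 library, yet at these levels the log2 difference was 0.74 (95% interval 0.01 to 1.47) and passed neither threshold (limma adjusted p = 0.367). With pseudocounts of 0.1 and 0.01 it was 2.46 and 4.64 and passed the fold and p thresholds, though not the adjusted p. The deficient cells overlapped both WT groups, with differences of 0.29 from WT stage 2 (limma adjusted p = 0.731) and -0.45 from WT stage 3 (limma adjusted p = 0.75). Myeloid and stromal cells can also make Cxcl10. Of their markers, Csf1r was at or below 0.12 FPKM in every library. Cd68 was above 0 in every library and reached 1.46 in WT stage 3. Lyz2 was listed at 0 throughout WT stage 2 and reached 1.24 in deficient and 0.86 in WT stage 3 cells. Cxcl10 itself did not exceed 1.77, so the levels of Cd68 and Lyz2 were not small beside it. The 8 myeloid and dendritic markers in the table summed to 0.85 to 2.34 FPKM in WT stage 3, where the mean of Cxcl10 was highest. Their higher sums in WT stage 2 (8.08 to 17.64) and Med23-deficient cells (12.92 to 20.4) were mostly Ccr9, which T cells also express. The 7 thymic epithelial and stromal markers in the table summed to 15.02 to 17.33 FPKM in WT stage 2, to 16.33 to 16.72 in deficient cells and to 11.88 to 13.43 in WT stage 3. These sums were mostly Ly75 and Pecam1. The epithelial marker Epcam had its highest mean in WT stage 3, with 0.157 FPKM in WT stage 2, 0.297 in deficient cells and 0.593 in WT stage 3. Krt8 was above 0 only in WT stage 3 replicate 2, at 0.28. Col1a1 was at or below 0.2 throughout, and Psmb11 and Pdgfrb at or below 0.06. The part of such cells in the Cxcl10 values was not tested. The Cxcl10 span is overlapped by another gene, Art3, and that of Xcl1 by Gm20743. Art3 did not exceed 0.29 FPKM and Gm20743 did not exceed 0.22 in any library, and whether the counting used strand is not given in the sources used here.

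Counted together, 0 of the 4 members tested in Med23-deficient against WT stage 2 cells passed the fold and p thresholds, where 0.798% of all genes tested were higher and 1.32% lower. At an unadjusted p of at most 0.05 alone it was also 0 of 4, and a Ballgown-style model called 0 as well. By adjusted p 0 of 4 passed against 0.213% of all genes in either direction, and 0 of 4 had groups that did not overlap, against 14% of all genes. The whole comparison had 44 genes at an adjusted p of at most 0.05 and 1981 at an unadjusted p of at most 0.05. Between the WT stages, 3 of 5 members were higher in stage 3 by the fold and p thresholds (background 1.7% higher, 1.9% lower) and the same 3 by adjusted p (background 0.759%), and 4 of 5 did not overlap (background 7.36%). In Med23-deficient stage 2 against WT stage 3 cells, 3 of 5 were lower by fold and p (background 1.48% lower, 1.39% higher), the same 3 by adjusted p (background 0.628%), and 3 of 5 did not overlap (background 6.75%). These comparisons share libraries, so the last repeats part of the other 2. The 3 calls by adjusted p between the WT stages were lost on the TPM scale and in a linear model in the manner of Ballgown, whereas the fold and p calls were kept in each. The adjusted p call of Ccl5 was also lost with equal sums (0.0788) and in limma without a trend (0.0615). The 3 calls by adjusted p against WT stage 3 were lost in the Ballgown-style model, with adjusted p of 0.186 to 0.227, and with the replicate number as a block, at 0.0828 to 0.102. Those between the WT stages also fell to 0 with any 1 of the 6 libraries left out other than WT stage 2 replicate 2, with adjusted p of 0.0312 to 0.112 for Ifng, 0.0331 to 0.132 for Xcl1 and 0.0559 to 0.141 for Ccl5 (limma). Against WT stage 3, the adjusted p with 1 library left out was 0.0236 to 0.0475 for Ccl5, 0.0385 to 0.069 for Ifng and 0.0235 to 0.0804 for Xcl1 (limma).

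**Figure D2:**
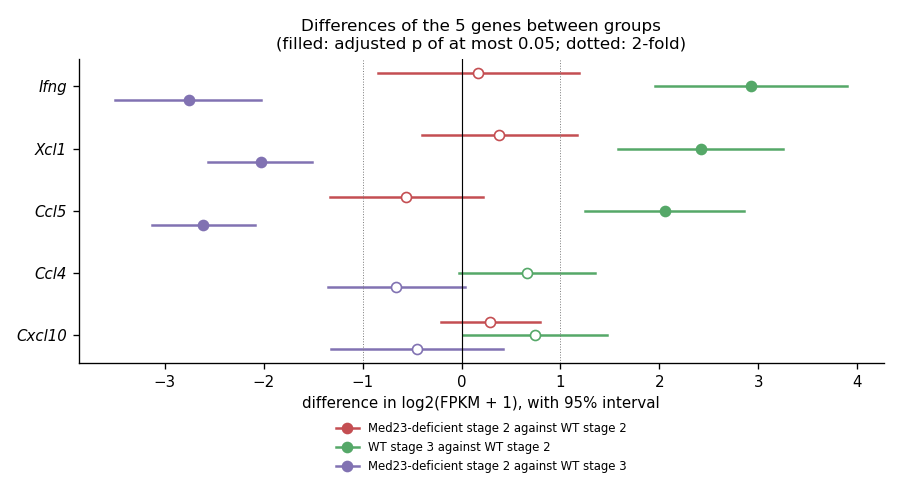
Differences of the 5 genes on the log2(FPKM + 1) scale (horizontal axis) with their 95% limma intervals, for the 3 comparisons; filled points have an adjusted p of at most 0.05, and Ccl4 has no point in the comparison where it is 0 throughout. The intervals of Ifng, Xcl1, Ccl5 and Cxcl10 for Med23-deficient against WT stage 2 cells all include 0, and those of Ifng, Xcl1 and Ccl5 against WT stage 3 lie wholly beyond a 2-fold decrease.

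WT stage 2 replicate 2 had the highest Ifng, Xcl1 and Ccl5 of its group and also the highest sum of NK receptor markers, at 73.99 FPKM against 48.18 and 43.48. The part of the NK receptor difference in the members' values was not tested. Without this library the WT stage difference was 3.33 for Ifng, 2.75 for Xcl1 and 2.32 for Ccl5 on the log2 scale. Only Ccl5 of the 3 then missed the adjusted p (limma adjusted p = 0.0559). Against the same WT stage 2 cells, 5 of the 7 NK receptor markers were lower in the deficient cells by fold and p, against 1.32% of all genes. The 5 include Klrb1c, the gene of the sort antigen. By adjusted p 1 of the 7 was lower, against 0.213% of all genes in either direction. The median log2 difference of the 7 was -1.72, beside -0.01 for all genes tested. No member was among the genes lower in that comparison.

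Taking each gene's pattern over the 9 libraries on the log2(FPKM + 1) scale with its mean removed, the gene nearest to Ifng was Slamf7, a receptor of NK and T cells, at a root mean square difference of 0.41. Next came Xcl1 at 0.43 and Cd244, another receptor of the same family, at 0.47, among 9138 genes compared. Genes compared had a mean of at least 1 FPKM over the 9 libraries. Cd244 reached it through WT stage 3, with means of 0.0133 FPKM in WT stage 2, 0.0533 in deficient cells and 4.35 in WT stage 3. Nearest to Xcl1 were PVRIG (0.23), Fgd5 (0.28) and Dennd4a (0.29). Nearest to Ccl5 were Myo1f, a myosin of immune cells (0.32), Pdgfb (0.34) and Tm6sf1 (0.39). All of these nearest genes had their highest mean in WT stage 3, which follows from their choice by pattern and is no finding. Fgd5 had means of 0.73, 1.36 and 7.3 FPKM in WT stage 2, deficient and WT stage 3 cells, and Pdgfb had 1.05, 0.103 and 5.84. Like Cd244, Pdgfb reached the required mean over the 9 libraries through WT stage 3. Ccl5 was 0.51 from Ifng and 0.53 from Xcl1. Ccl4 and Cxcl10, which vary by 1.1 and 1.47 on that scale, were not searched.

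Of 41 chemokine ligand genes listed for the mouse, 9 were in the table and 32 were not analysed here. Only Xcl1 and Ccl5 of the 9 passed a threshold in any comparison. Apart from the members, Ccl25, a chemokine for Ccr9-bearing thymocytes, stood at 1.4, 1.39 and 1.68 FPKM in Med23-deficient stage 2 cells, at 1.81, 2.62 and 1.62 in WT stage 2 and at 1.49, 2.29 and 1.57 in WT stage 3, with overlap between all groups. Ccl27a, Ccl1, Ccl22 and Cxcl2 did not exceed 0.56 FPKM in any library. The median log2 difference of the tested ligands was 0.03 in deficient against WT stage 2 cells, 0.35 between the WT stages and -0.15 in deficient against WT stage 3 cells, beside -0.01, -0.01 and 0.0 for all genes tested. Without the members it was -0.03, -0.1 and 0.08. Of 27 listed interferon and interleukin 10 family genes, only Ifng and Ifnz were in the table, and Ifnz did not exceed 0.33 FPKM.

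**Figure D3:**
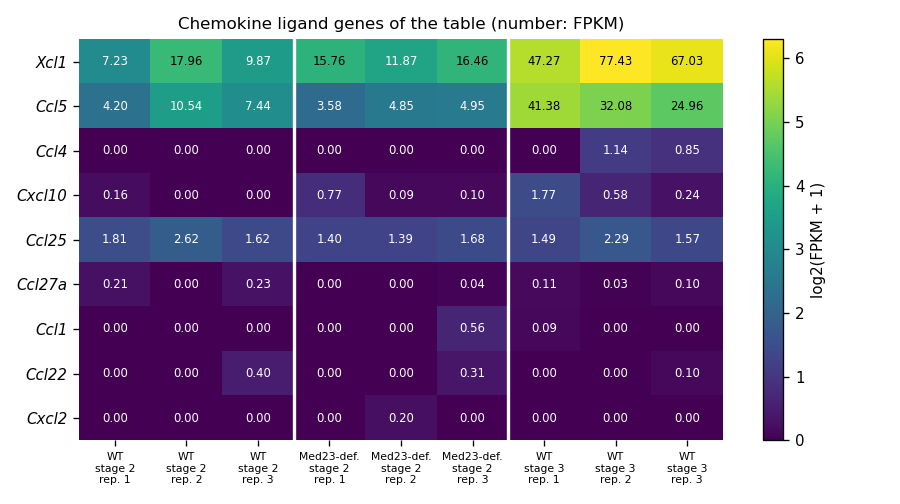
Chemokine ligand genes of the table in the 9 libraries, coloured by log2(FPKM + 1) with the FPKM printed in each cell. Xcl1 and Ccl5 stand above the other ligands in every library and are highest in the 3 WT stage 3 libraries, and Ccl25 stays between 1.39 and 2.62 FPKM.

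Receptors of the products were looked at next, since iNKT cells can respond to what they release. Ifngr1, the ligand-binding chain for interferon gamma, was at 22.6, 26.32 and 42.98 FPKM in Med23-deficient stage 2 cells, at 24.62, 24.64 and 25.87 in WT stage 2 and at 106.46, 89.88 and 121.2 in WT stage 3. It was higher in WT stage 3 than in WT stage 2 by 2.03 on the log2 scale (limma adjusted p = 0.00442) and lower in deficient cells than in WT stage 3 (-1.8, limma adjusted p = 0.0366). Ifngr2, the signalling chain of the same receptor, was listed lower in WT stage 3. It was at 4.28, 5.67 and 4.04 FPKM in deficient cells, at 4.78, 2.41 and 5.01 in WT stage 2, and at 0, 0 and 0.07 in WT stage 3. As for Ccl4, a listed 0 can also be a failed estimate, so it gives no upper limit. The Ifngr2 difference was -2.26 between the WT stages (limma adjusted p = 0.0291) and 2.46 between deficient and WT stage 3 cells (limma adjusted p = 0.0101). Neither chain passed between the stage 2 groups, where the differences were 0.23 for Ifngr1 (limma adjusted p = 0.749) and 0.19 for Ifngr2 (limma adjusted p = 0.82). Cxcr3, the receptor for Cxcl10, was at 48.03, 48.71 and 39.78 FPKM in deficient cells, all above the 30.23, 35.99 and 28.61 of WT stage 2, and its difference of 0.51 missed both thresholds (limma adjusted p = 0.238). WT stage 3 had 51.36, 46.64 and 43.25 FPKM of it. Xcr1 did not exceed 0.01 FPKM in any library.

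Of 35 listed regulators of Ifng in T and NK cells, 34 were in the table. Between the WT stages 8 of 34 tested were higher and 0 lower by fold and p, and 6 were higher by adjusted p. Over all genes tested the shares were 1.7% higher, 1.9% lower and 0.759% higher by adjusted p. At an unadjusted p of at most 0.05 there were 14 of 34, against 2738 of 20689 over all genes. The median log2 difference was 0.17. The 4 with the largest differences were Il12rb2, a chain of the interleukin 12 receptor (2.05, limma adjusted p = 0.00368), Stat4, the factor that receptor activates (1.83, limma adjusted p = 0.0561), the transcription factor Bhlhe40 (1.82, limma adjusted p = 0.0239) and Il2rb, a chain shared by the interleukin 2 and 15 receptors (1.36, limma adjusted p = 0.0171). Tbx21, which encodes T-bet, the main activator of Ifng, was at 37.15, 30.54 and 20.42 FPKM in WT stage 2, at 34.9, 38.15 and 43.61 in Med23-deficient stage 2 and at 90.67, 62.01 and 66.89 in WT stage 3. All WT stage 3 libraries were above the others, and the stage difference of 1.31 passed fold and p but not the adjusted p (limma adjusted p = 0.0742).

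In Med23-deficient against WT stage 2 cells, 1 of 33 regulators tested was higher and 1 lower by fold and p, and 0 passed the adjusted p in limma, with 10 at an unadjusted p of at most 0.05, against 1981 of 20674 over all genes (0.798% were higher and 1.32% lower by fold and p). Bcl6, a repressor of the type 1 programme in helper T cells, was at 3.63, 3.21 and 2.82 FPKM in deficient and at 1.17, 0.42 and 1.11 in WT stage 2 cells (1.17 on the log2 scale, limma adjusted p = 0.219). Il18r1, a chain of the interleukin 18 receptor, was at 15.07, 19.36 and 31.93 FPKM in deficient and at 52.83, 83.36 and 91.92 in WT stage 2 cells (-1.76, limma adjusted p = 0.135). Neither gene's groups overlapped, which held for 14% of all genes tested in that comparison. The Bcl6 call was lost on the TPM scale and without WT stage 2 replicate 2, with log2 differences of 0.94 and 0.98. Il18rap, the partner chain of Il18r1, was lower in deficient than in WT stage 3 cells by fold and p (-1.97, limma adjusted p = 0.0372). So were Il12rb2 (-1.36, limma adjusted p = 0.0557), Il2rb (-1.29, limma adjusted p = 0.0454) and Stat4 (-1.15, limma adjusted p = 0.023). In all, 7 of 33 regulators were lower and 2 higher in that comparison by fold and p, 4 and 1 by adjusted p, with a median of -0.32. The 2 higher were Bcl6 (1.11, limma adjusted p = 0.171) and Gata3 (1.02, limma adjusted p = 0.0175). Against WT stage 2 every deficient library was higher in Gata3, by 0.82 on the log2 scale, below 2-fold (limma adjusted p = 0.0786). Over all genes 1.48% were lower and 1.39% higher by fold and p, and 0.628% lower by adjusted p.

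**Figure D4:**
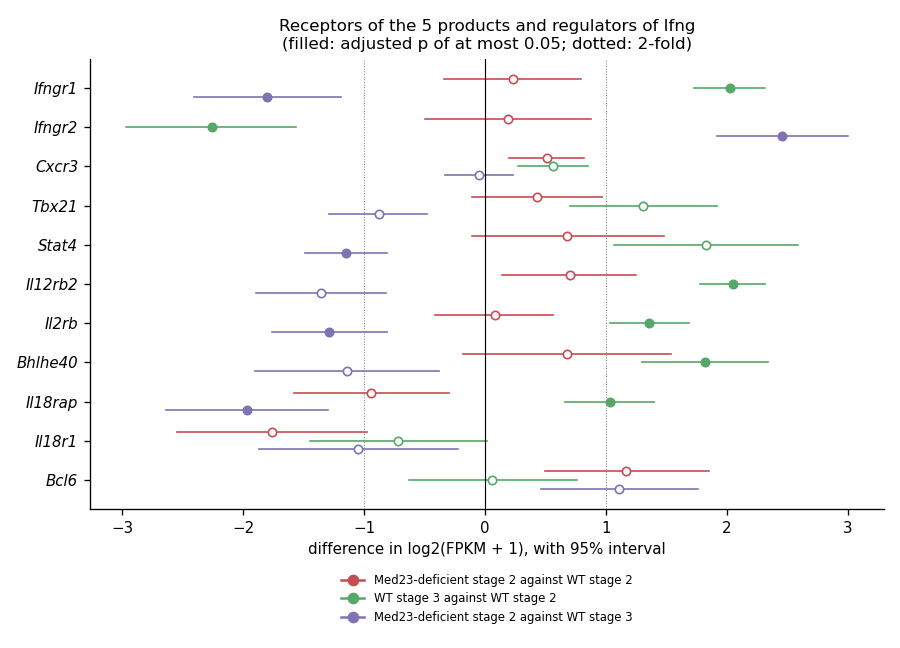
Differences on the log2(FPKM + 1) scale (horizontal axis) with 95% limma intervals for 3 receptor genes and 8 regulators of Ifng in the 3 comparisons; filled points have an adjusted p of at most 0.05. Ifngr1 and Ifngr2 lie on opposite sides of 0 between the WT stages, and Il18r1 and Bcl6 are the only genes shown whose points pass a 2-fold difference between the stage 2 groups.

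Of 36 listed genes of interferon gamma signalling and its targets, 32 were in the table. When the deficient cells were set against WT stage 2, 0 of the 32 passed by fold and p or by adjusted p. The median log2 difference was 0.04, and 5 were at an unadjusted p of at most 0.05 (limma). Over all genes 0.798% were higher and 1.32% lower by fold and p, and 0.213% passed by adjusted p. Those shares put the counts of 0 near the background. By unadjusted p there were 1981 of 20674 over all genes. Between the WT stages 1 was lower by fold and p, Iigp1, an interferon-inducible GTPase (-1.62, limma adjusted p = 0.0714). Its levels were 6.58, 4.48 and 5.74 FPKM in WT stage 2, 3.57, 2.89 and 3.71 in deficient stage 2 and 1.78, 0.51 and 1.31 in WT stage 3. Gbp4 and Gbp8, guanylate-binding proteins, were higher by adjusted p with differences below 2-fold (0.85 with limma adjusted p = 0.042 for Gbp4, 0.83 with limma adjusted p = 0.0251 for Gbp8). The share over all genes was 1.9% lower by fold and p and 0.759% higher by adjusted p. At an unadjusted p of at most 0.05 there were 12 of 32, against 2738 of 20689 over all genes, and the median over the 32 was -0.01. In deficient against WT stage 3 cells Iigp1 was higher by fold and p (1.04, limma adjusted p = 0.262). That call was lost at 0.86 on the TPM scale, 0.98 without Med23-deficient replicate 3 and 0.79 without WT stage 3 replicate 2. Irf8, an interferon-regulatory factor, was lower by fold and p (-1.3, limma adjusted p = 0.129). The median was -0.04, and 0 passed by adjusted p, with 7 at an unadjusted p of at most 0.05. Over all genes in that comparison 1.39% were higher and 1.48% lower by fold and p, and 0.628% lower by adjusted p. By unadjusted p there were 2128 of 20846.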

How the data were processed

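RNA of 9 libraries of sorted thymic iNKT cells, 3 per group (Med23-deficient stage 2, WT stage 2, WT stage 3), had been sequenced from a stranded total RNA kit for very small inputs. The authors trimmed reads with Trimmomatic (version 0.36), aligned them to mm10 with HISAT2, kept reads hitting at most 2 loci and quantified GENCODE vM12 genes with StringTie. The values deposited by the authors are FPKM per gene and library, rounded to 2 decimals. The share of short low-FPKM genes falling on whole multiples of 1 read (tolerance 0.1) was at most 28.2% in a library, so reads could not be recovered and depth is unknown.

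Differences were tested with limma (version 3.58.1, in R 4.3.3, with a trended prior variance) on log2(FPKM + 1), for the 3 pairs of groups, each with its 6 libraries and no covariate. The fold and p thresholds are those of the study, which used Ballgown. The script was tested on simulated data. Counts and medians describe the lists, and no set test was made. The 5 genes and the lists were chosen with earlier results of these data known. Named genes were mainly drawn from the members, up to 4 genes per list and comparison with the largest difference past fold and p, neighbours within 250 kb with a mean of at least 1 FPKM, and the 3 genes nearest in pattern to a member spanning at least 2 log2 units. Of the neighbours with that mean only Taf15 is named. Tbx21, Cxcr3, Xcr1, Gbp4, Gbp8, Ifnz, Gata3 and the other ligands were named after their values were seen. Alternatives were other pseudocounts, a filter at a mean FPKM of 1, 3 other scalings, limma without a trend, a Ballgown-style model, all 9 libraries in 1 fit, a replicate block and each library left out. A result for 1 receptor gene is not reported here. Running these for the other list genes was chosen after seeing the data. Promoter sequences are RefSeq's for GRCm38.p6 and covered 3 of the 5 members. Figures were drawn with Python 3.11.15 and matplotlib 3.10.9.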

Additional observations from a re-analysis of the deposited data

How the results depend on the processing

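The fold and p counts of the members were 0, 3 and 3 (Med23-deficient against WT stage 2, WT stage 3 against WT stage 2, deficient against WT stage 3) in every alternative run, except that between the WT stages Cxcl10 passed too with pseudocounts of 0.1 and 0.01 (2.46 and 4.64). The adjusted p was less stable. The 3 members called between the WT stages became 2 with equal sums and 2 in limma without a trend (Ccl5 lost in both), 0 on the TPM scale, 0 in the Ballgown-style model, 1 (Ifng) with the replicate block and between 0 and 2 with 1 library left out. The 3 called against WT stage 3 became 0 in the Ballgown-style model, 0 with the replicate block and between 1 and 3 with 1 library left out, where Ccl5 passed in 6 of 6. The count between the stage 2 groups was 0 in each. Over all genes tested, the fold and p counts of 437, 745 and 597 became 971, 1423 and 1221 with a pseudocount of 0.1 and 974, 1452 and 1211 with 0.01. With 1 library left out they ran from 417 to 544, from 726 to 860 and from 584 to 740. The adjusted p counts of 44, 346 and 278 became 1, 5 and 18 in the Ballgown-style model, 0, 19 and 42 with the replicate block, 1 to 8, 22 to 137 and 72 to 174 with 1 library left out. In the first comparison the count was 77 with a pseudocount of 0.01, 143 with a mean FPKM of at least 1, 28 on the TPM scale, 27 with equal sums without the most abundant gene model and 176 in the fit of all 9 libraries. In the comparison of the WT stages it was 219 on the TPM scale and 626 with all 9 libraries. Of the 44 genes 31.8% were higher, against 14.3% on the TPM scale and 7.41% with equal sums. The TPM scale moved the median of genes with a mean of at least 1 FPKM from -0.05 to -0.16 in the first comparison. The Ifng difference between the stage 2 groups, 0.17, was -0.041 without WT stage 2 replicate 1, -0.0175 without WT stage 2 replicate 3 and -0.012 without Med23-deficient replicate 3, within a range of -0.041 to 0.57 over the libraries left out. The cause was not tested for any of these. Ccl4 and Cxcl10 have no value under the mean FPKM filter.

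Of the other genes named as past fold and p, 2 of 4, 11 of 11 and 11 of 12 kept the call in every alternative run. The exceptions were Bcl6 and Prf1 in the first comparison and Iigp1 in the last, and 0 changed sign. Same-numbered libraries had deviations correlated at 0.004 to 0.272, not over 0.1 in every pair, so the numbers were not taken to pair the libraries. The replicates numbered 3 stood apart, with 0.144, 0.161 and 0.272 between groups. Every pair of a replicate 3 with a replicate 1 or 2 was negative, from -0.175 to -0.038. The same-numbered pairs of replicates 1 and 2 did not exceed 0.085. Whether the replicates numbered 3 share a batch was not tested. Without read counts no counting interval can be given, and small differences in Ccl4 and Cxcl10 were not detectable.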

Other observations

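Other effector genes of the same cells did not follow a single pattern. Of 16 listed, 15 were in the table. Between the WT stages 5 of 14 tested were higher and 4 lower by fold and p, against 1.7% and 1.9% of all genes tested. Gzmb, the granule protease granzyme B, was at 4.2, 7.01 and 7.55 FPKM in Med23-deficient stage 2 cells, at 11.35, 14.4 and 10.17 in those of WT stage 2 and at 149.1, 210.79 and 164.02 in WT stage 3, so that every deficient library was below every WT stage 2 library (-0.86, limma adjusted p = 0.301) and below WT stage 3 (-4.62, limma adjusted p = 0.00149). Prf1, the pore-forming protein perforin, was at 0.43, 0.72 and 0.55 FPKM in the deficient cells and at 2.01, 3.79 and 2.01 in WT stage 2, lower by fold and p (-1.17, limma adjusted p = 0.23). Without WT stage 2 replicate 2 the Prf1 difference was -0.95 and the call was lost. Gzma, granzyme A, was listed at 0 in all deficient libraries; WT stage 2 had 0, 0 and 1.5 FPKM, and WT stage 3 had 41.37, 29.52 and 17.63 in WT stage 3. Tnfsf14, the ligand LIGHT, was higher in the deficient cells by fold and p, at 33.78, 33.46 and 30.13 FPKM against 9.04, 12.98 and 14.08 in WT stage 2 (1.38, limma adjusted p = 0.0586). The type 2 cytokine gene Il13 was at 7.7, 7.65 and 6.19 FPKM in the deficient cells, at 3.16, 10.39 and 6.06 in WT stage 2 and at 0, 0 and 0.09 in WT stage 3, and Tnfsf11, which encodes RANKL, was lower in WT stage 3 than in WT stage 2 (-2.53, limma adjusted p = 0.0298).

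The genes within 250 kb of the members were looked at as well. Of 30 that are not members, 14 had a mean of at least 1 FPKM in some group, and 0 of the 30 passed the fold and p thresholds in any comparison. Of all genes tested, 0.798% to 1.9% were called in each direction, so this count is near the background. At an unadjusted p of at most 0.05 in limma, Taf15 and Gm20743, whose span overlaps Xcl1, passed between the WT stages. Beside Ccl5, at a distance of 19.0 kb, lies Taf15, an RNA-binding protein gene, with means of 28.7 FPKM in WT stage 2, 31.4 in Med23-deficient stage 2 and 40.1 in WT stage 3 (0.47 between the WT stages, limma adjusted p = 0.0806).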
